A study of Homo sapiens with 4 samples.

Results

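The genes described here are 10 enzymes that make asparagine, serine and proline or carry one-carbon units on folate in mitochondria: ASNS, PHGDH, PSAT1, PSPH, SHMT2, MTHFD2, MTHFD1L, ALDH1L2, PYCR1 and ALDH18A1. They were taken by symbol from the 32955 genes of the expression table, and all 10 also passed the filter that left 13871 genes for testing (a mean of at least 1 RPKM, the reads on a gene scaled by its length and by the library's total). The list was chosen by values of these same libraries, both miR-217 mimic against mimic NC and replicate number 2 against replicate number 1. The values of the 10 genes in both comparisons are therefore a description, and no test is made on the list.

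The RNA-seq compared cells of MDA-MB-231, an established breast cancer line that lacks the estrogen receptor, after transfection of mimic NC (a control oligonucleotide) or of miR-217 mimic (a synthetic RNA that acts as miR-217), to look for genes that respond to miR-217. There were 2 libraries per group, and the labels give each group the replicate numbers 1 and 2. All 4 came from cells grown in DMEM with fetal bovine serum, and no other treatment or genetic change is given for either group. The labels do not state what a number marks or whether the libraries came from separate cultures, so the spread between libraries may be technical.

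Cells can take up asparagine, serine and proline or make them. Asparagine synthetase moves an amide group from glutamine to aspartate. Serine is made from a glycolytic intermediate by PHGDH, PSAT1 and PSPH in turn, and SHMT2 in mitochondria then splits serine into glycine and a one-carbon unit on tetrahydrofolate, which MTHFD2, MTHFD1L and ALDH1L2 oxidise or release as formate or carbon dioxide. Proline is made from glutamate by ALDH18A1 and then PYCR1. The transcription factor ATF4, whose translation increases when amino acids run short or the endoplasmic reticulum is stressed, is known to bind a composite C/EBP-ATF element in several genes of this kind.

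Promoters were examined because most of the 10 genes differed together between the replicate numbers. RefSeq windows on GRCh38.p14, from 250 bases before to 50 after a start site, were found for 6 of the 10 enzymes (10 windows), and PSPH, SHMT2, ALDH1L2 and PYCR1 had no entry. Both strands were searched for TGATGNAAN (the composite C/EBP-ATF element), TGACGTNA (a CRE-like site), CACGTG (an E-box) and CCAAT (the box bound by NF-Y). The element TGATGNAAN was in a window of 2 of the 6 enzymes, ASNS and MTHFD1L, compared with 4.45% of the 27305 genes in the promoter table (3.61% of its 35116 windows). TGACGTNA was found in ALDH18A1 alone, on both strands and overlapping itself, compared with 3.63% of all genes. CCAAT was found in 4 enzymes (PHGDH, PSAT1, MTHFD2 and MTHFD1L, 39.7% of all genes) and CACGTG in 2 (MTHFD1L and ALDH18A1, 8.77% of all genes). A match describes the letters and is not evidence of binding. The stretches below show the matches in capitals, 5′ to 3′ on the strand of the gene. That of ASNS, the enzyme with the largest difference, is at chr7:97872448-97872496 (minus strand), that of MTHFD1L at chr6:150866337-150866385 (plus strand), that of ALDH18A1, the enzyme that went the other way, at chr10:95656691-95656743 (minus strand), and that of PSAT1, the enzyme with the highest level and with 3 CCAAT boxes, at chr9:78297002-78297087 (plus strand).
ASNS promoter, TGATGNAAN: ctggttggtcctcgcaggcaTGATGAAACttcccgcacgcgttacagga
MTHFD1L promoter, TGATGNAAN: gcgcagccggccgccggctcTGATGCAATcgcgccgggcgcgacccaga
ALDH18A1 promoter, TGACGTNA: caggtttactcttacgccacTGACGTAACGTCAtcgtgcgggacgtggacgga
PSAT1 promoter, CCAAT: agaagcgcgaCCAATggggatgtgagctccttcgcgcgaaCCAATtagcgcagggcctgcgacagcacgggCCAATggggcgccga

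The transfected mimic is shown by the mature sequence of miR-217 in RefSeq (chr2:55983020-55983042, minus strand), with its seed, bases 2 to 8, in capitals. Matches to the seed, ATGCAGT, or to bases 2 to 7 followed by A, TGCAGTA, were sought in the longest 3′UTR of each gene in GENCODE 29. Of the 10 enzymes, 1 had an ATGCAGT match and 2 had either match, whereas 14.5% of the 9911 tested genes that have a 3′UTR in this annotation had the former and 21.7% had either. The matches were in ALDH1L2 at chr12:105024105-105024111 and chr12:105023579-105023585 (minus strand) and in MTHFD2 at chr2:74214405-74214411 (plus strand), shown in capitals because these 2 enzymes are where a seed effect could be looked for.
hsa-miR-217-5p: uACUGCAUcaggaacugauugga
ALDH1L2 3′UTR, ATGCAGT: atgtcagtaccATGCAGTtataatacaca
ALDH1L2 3′UTR, TGCAGTA: ggagaattcatTGCAGTAatgtaagtaaa
MTHFD2 3′UTR, TGCAGTA: gcacatacctcTGCAGTAcctcaccaggg

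The mimic NC libraries held 57933183 (number 1) and 47374957 (number 2) reads on genes, compared with 53356283 (number 1) and 32635814 (number 2) for miR-217 mimic. The number 2 library was thus the shallower in each group. Over all tested genes, the main axis of a principal component analysis (71.3% of the variance) set the numbers apart rather than the groups. Of the markers of a mesenchymal-like breast line, all 7 were detected, while of 7 luminal markers PGR was not listed, ESR1, GATA3 and CDH1 stayed below 0.5 RPKM in every library, and EPCAM was highest at 3.90 to 7.41 RPKM. CDKN2A, usually given as deleted in MDA-MB-231, was present at 10.5 to 13.2 RPKM. CDKN2B and MTAP, checked with it, were at 6.92 to 8.91 and 1.28 to 1.70 RPKM. Which cells these are rests on the labels. The summed level of 5 leukocyte markers was 0.801, 0.763, 1.22 and 2.71 RPKM in the order mimic NC 1, mimic NC 2, miR-217 mimic 1, miR-217 mimic 2, and of 5 hepatocyte markers only SERPINA1 was listed, at or below 0.213 RPKM. The part of depth or of other cells in the results was not tested. In bulk RNA, fewer cells expressing a gene and less RNA per cell cannot be told apart.

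The 10 enzymes together took 433 of every 1000000 reads in mimic NC replicate 1 and 1048 in replicate 2. With miR-217 mimic they took 469 in replicate 1 and 1032 in replicate 2. Their share of the reads therefore differed between the numbers and was alike in the groups. In 9 of the 10, both number 2 libraries lay above both number 1 libraries, a pattern of 26.9% of all tested genes. The remaining enzyme, ALDH18A1, was lower in both number 2 libraries, as were 35.5% of all tested genes. The median difference, number 2 minus number 1 in log2(RPKM + 1), was 1.02 for the 10 enzymes and -0.04 for all genes tested, and the scale understates the difference of low genes. A gene was called where both number 2 libraries lay on the same side of both number 1 libraries, by any margin. Its mean difference between the numbers also had to be at least 1 on this scale. By that rule 5 enzymes were called higher (0.577% of all tested genes) and 0 were called lower (0.562% of all tested genes). SHMT2, at 1.24, lay just inside this limit, and MTHFD2 and PSPH, each at 0.81, lay just outside. Since the list was chosen by this contrast, nothing is read from these counts.

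**Figure D1:**
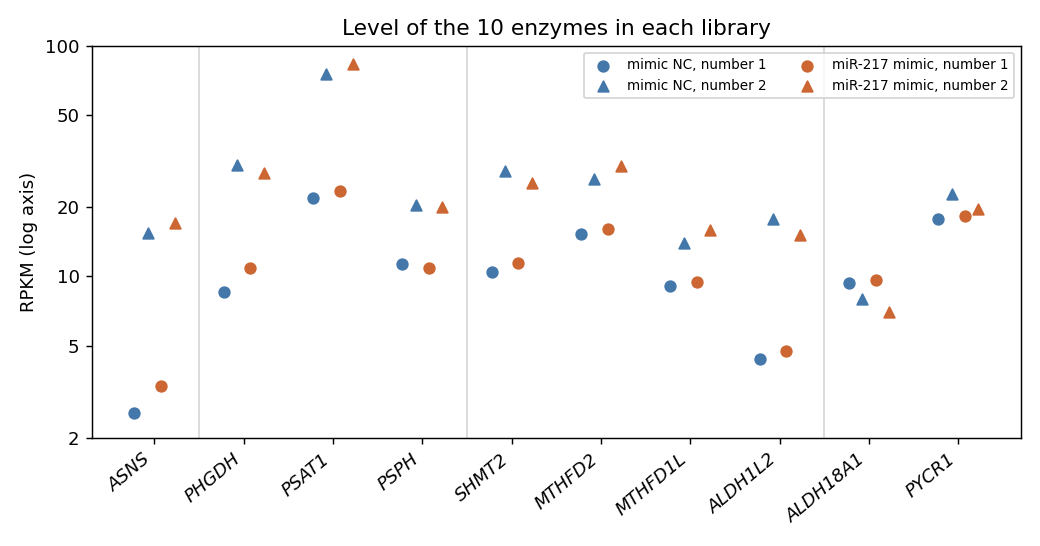
Level of each of the 10 enzymes in RPKM on a log axis, with 1 point per library (circles, replicate number 1; triangles, number 2; blue, mimic NC; orange, miR-217 mimic) and grey lines between asparagine, serine, folate and proline enzymes. Triangles lie above circles for 9 enzymes and below them for ALDH18A1, and blue and orange points of the same number lie close together.

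ASNS, asparagine synthetase (chr7:97852118-97872542, minus strand, hg38), had 2.56 and 15.5 RPKM in mimic NC replicates 1 and 2 and 3.35 and 17.1 RPKM in miR-217 mimic replicates 1 and 2. It was the lowest of the 10 enzymes in the number 1 libraries and differed most between the numbers, 6.05-fold within mimic NC and 5.09-fold within miR-217 mimic. Among the 13871 tested genes it ranked 2 for the difference between the numbers, at 2.13 on the log2(RPKM + 1) scale. In number 1 it rested on 662 and 797 reads, the fewest of any enzyme of the list.

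Serine synthesis starts with PHGDH, phosphoglycerate dehydrogenase (chr1:119659798-119744215, plus strand), which had 8.54 and 30.3 RPKM in mimic NC replicates 1 and 2 and 10.9 and 28.0 RPKM in miR-217 mimic replicates 1 and 2. The ratio of number 2 to number 1 was 3.55 within mimic NC and 2.58 within miR-217 mimic. PSAT1, phosphoserine aminotransferase (chr9:78297143-78330093, plus strand), had the highest level of the 10 enzymes in every library, with 21.8 and 75.7 RPKM in mimic NC and 23.5 and 83.1 RPKM in miR-217 mimic. Its ratios, 3.47 and 3.54, were nearly the same in both groups. PSPH, phosphoserine phosphatase, which completes the route (chr7:56011051-56051604, minus strand), had 11.3 and 20.4 RPKM in mimic NC and 10.9 and 20.04 RPKM in miR-217 mimic. Its groups of numbers did not overlap, but its ratios of 1.80 and 1.84 were the smallest of the serine enzymes. PSPHP1, a pseudogene of PSPH with which reads could be shared, ran the other way, with 19.8 and 14.9 RPKM in mimic NC and 18.2 and 11.5 RPKM in miR-217 mimic. It had few reads, 299 and 184 in mimic NC and 253 and 98 in miR-217 mimic. PSPH had 1808 and 2666 reads in mimic NC and 1606 and 1806 in miR-217 mimic. Pseudogenes of ASNS and MTHFD2 (ASNSP3, MTHFD2P1, MTHFD2P3 and MTHFD2P6) had 0 to 3 reads in each library.

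In the mitochondrial folate pathway SHMT2, serine hydroxymethyltransferase (chr12:57229327-57234935, plus strand), had 10.4 and 28.8 RPKM in mimic NC replicates 1 and 2 and 11.4 and 25.5 RPKM in miR-217 mimic replicates 1 and 2. The difference between its numbers was 1.38 within mimic NC and 1.09 within miR-217 mimic (log2 of RPKM + 1). Its exons share 427 bases, 8.83% of its length, with RP11-123K3.9 on the opposite strand, which had 14.2 and 44.0 RPKM in mimic NC and 16.2 and 38.4 RPKM in miR-217 mimic. The library kit kept strand, but whether counting used it is not given in the sources used here, and so reads of these overlapping genes cannot be told apart. MTHFD2, a dehydrogenase and cyclohydrolase (chr2:74198562-74217565, plus strand), had 15.3 and 26.6 RPKM in mimic NC and 16.1 and 30.1 RPKM in miR-217 mimic. It shares 27.19% of its exon length with SLC4A5 and 6.06% with RP11-287D1.3, both on the opposite strand, of which SLC4A5 stayed at 0.084 to 0.233 RPKM and RP11-287D1.3 at 6.55 to 10.5 RPKM.

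MTHFD1L, which releases formate from folate (chr6:150865549-151101887, plus strand), had 9.08 and 14.0 RPKM in mimic NC replicates 1 and 2 and 9.50 and 15.9 RPKM in miR-217 mimic replicates 1 and 2. Among the 4 mitochondrial folate enzymes it had the smallest ratios, 1.55 and 1.67. ALDH1L2, formyltetrahydrofolate dehydrogenase, which turns the one-carbon unit into carbon dioxide (chr12:105019784-105084577, minus strand), had 4.39 and 17.8 RPKM in mimic NC and 4.76 and 15.1 RPKM in miR-217 mimic. Its ratios, 4.06 and 3.17, were the largest of the 4, and it shares 1.70% of its exon length with C12orf45, which was at or below 0.886 RPKM. All 4 enzymes were thus higher in number 2 in both groups, by 1.55-fold to 4.06-fold in mimic NC and 1.67-fold to 3.17-fold in miR-217 mimic.

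The proline enzymes differed least. ALDH18A1, the synthase that starts the route (chr10:95605929-95656706, minus strand), had 9.36 and 8.01 RPKM in mimic NC replicates 1 and 2 and 9.65 and 7.01 RPKM in miR-217 mimic replicates 1 and 2, ratios of 0.855 and 0.726. PYCR1, the mitochondrial reductase that ends it (chr17:81932384-81942412, minus strand), had 17.8 and 22.8 RPKM in mimic NC and 18.2 and 19.7 RPKM in miR-217 mimic. Its lower number 2 value thus lay close above its higher number 1 value, and its rank for the difference was 2087 of 13871. PYCR1 shares 14.14% of its exon length with MYADML2 on the same strand, which was at or below 0.25 RPKM, and 15.59% with RP11-498C9.13 on the opposite strand, at 2.21 to 4.49 RPKM. The exons of the other 6 enzymes overlap no other gene of the table.

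The order of the levels, compared per length in RPKM, changed between the numbers. In number 1 PSAT1 was highest, followed by PYCR1 and MTHFD2, each apart from the next. PSPH, SHMT2, PHGDH, ALDH18A1 and MTHFD1L came next with neighbours that overlapped, and ALDH1L2 and then ASNS were lowest, apart from each other. In number 2 PSAT1 was again highest, apart from the rest. PHGDH, MTHFD2 and SHMT2 followed and overlapped in turn, and PYCR1 and PSPH overlapped below them, apart from SHMT2. ALDH1L2, ASNS and MTHFD1L overlapped in turn, and ALDH18A1 was lowest, apart from the rest. The highest mean level was 7.66 times the lowest in number 1 and 10.58 times the lowest in number 2.

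Between the groups the 10 enzymes differed little. In limma, with no term for the number, the log2 fold change of the 10 enzymes (miR-217 mimic against mimic NC, log2 of RPKM + 1) ranged from -0.09 for PYCR1 to 0.21 for ASNS, with a median of 0.04 compared with -0.02 for all tested genes, and 5 enzymes were above and 5 below 0. ASNS had a mean of 9.04 ± 9.16 RPKM in mimic NC and 10.2 ± 9.70 RPKM in miR-217 mimic (SD, n = 2), and its log2 fold change of 0.21 had a standard error of 0.98. PSAT1 had 48.8 ± 38.1 RPKM in mimic NC and 53.3 ± 42.2 RPKM in miR-217 mimic (SD, n = 2), a log2 fold change of 0.12 with a standard error of 0.82. These errors hold the difference between the numbers, which is far larger than that between the groups. PYCR1 had the smallest standard error, 0.16, around a log2 fold change of -0.09, and the other 7 enzymes had fold changes of -0.07 to 0.12 with standard errors of 0.18 to 0.76.

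Of the enzymes, 0 had groups that did not overlap, compared with 23.2% of all tested genes. Nothing is read from this 0, since a gene whose numbers lie apart must have groups that overlap. The numbers of all 10 enzymes lay apart, so the count was fixed in advance. Of the enzymes, 0 were past the lines drawn at an unadjusted p of 0.05 and a log2 fold change of 0.32, compared with 1.15% of all tested genes. With Benjamini-Hochberg adjustment in limma, 0 of the 13871 genes (0%) had an adjusted p under 0.05, 165 had an unadjusted p under 0.05, and limma voom on recovered reads also gave 0 at the adjusted threshold. With 2 libraries in each group, the smallest p of a two-sided exact permutation test is 0.333. Without 1 of the libraries the groups no longer hold the same numbers, and the median of the 10 fold changes then went to -0.575 without mimic NC replicate 1 and -0.494 without miR-217 mimic replicate 2, and to 0.585 without mimic NC replicate 2 and 0.538 without miR-217 mimic replicate 1.

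Within each number the groups could be set side by side without that difference. In number 1 the enzymes had a median difference of 0.08 (miR-217 mimic minus mimic NC), and in number 2 the median was -0.07. ASNS was higher with miR-217 mimic in both numbers, by 0.29 and 0.13, as were PSAT1 (0.10 and 0.13), MTHFD2 (0.07 and 0.17) and MTHFD1L (0.06 and 0.17), while PSPH was slightly lower in both (-0.05 and -0.02). PHGDH, SHMT2, ALDH1L2, ALDH18A1 and PYCR1 were higher in number 1 and lower in number 2. PHGDH had the largest gap, 0.31 in number 1 and -0.11 in number 2. ALDH1L2, with 2 of the 3 seed matches shown above, had 0.10 in number 1 and -0.23 in number 2, and MTHFD2, with the third, was higher in both. With 1 library per group within a number these differences have no error of their own and were not tested.

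**Figure D2:**
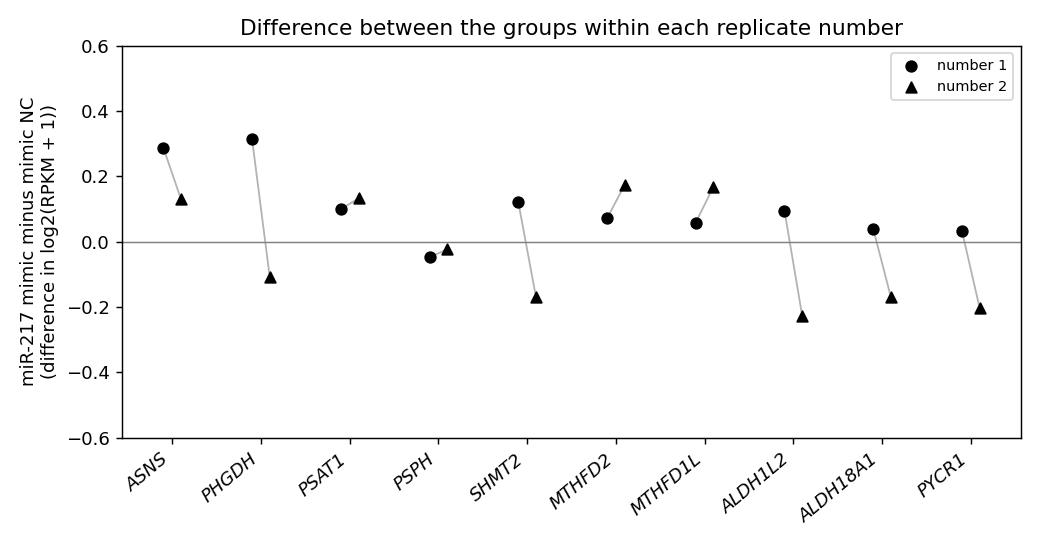
Difference in log2(RPKM + 1) between the miR-217 mimic and mimic NC library of the same replicate number, for each of the 10 enzymes (circle, number 1; triangle, number 2; the horizontal line is 0). The points lie between -0.23 and 0.31, and 5 enzymes have points on opposite sides of 0.

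Most of the folate and proline enzymes have a relative that catalyses a like reaction, in the cytosol in the case of SHMT1, MTHFD1, ALDH1L1 and PYCRL (now PYCR3), and these relatives were compared whatever their values. SHMT1 had 3.95 and 3.34 RPKM in mimic NC replicates 1 and 2 and 3.75 and 3.06 RPKM in miR-217 mimic replicates 1 and 2, so that both number 2 libraries were the lower, opposite to SHMT2. MTHFD1, the cytosolic enzyme with 3 folate activities, had 26.6 and 24.6 RPKM in mimic NC and 27.6 and 26.2 RPKM in miR-217 mimic, also lower in number 2. MTHFD2L, a second mitochondrial dehydrogenase, had 1.11 to 1.35 RPKM and its numbers overlapped. ALDH1L1 was near 0, with 2 to 6 reads in each library. For the folate pairs the difference between the numbers was thus 1.24 in SHMT2 beside -0.21 in SHMT1, 0.81 in MTHFD2 beside 0.03 in MTHFD2L, and 0.63 in MTHFD1L beside -0.09 in MTHFD1 (log2 of RPKM + 1). PYCRL had 3.21 and 2.28 RPKM in mimic NC and 3.16 and 2.31 RPKM in miR-217 mimic, lower in number 2 in both groups, beside a difference of 0.22 in PYCR1. As the 10 enzymes were chosen by this contrast and the relatives were not, the gaps between them were not tested.

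**Figure D3:**
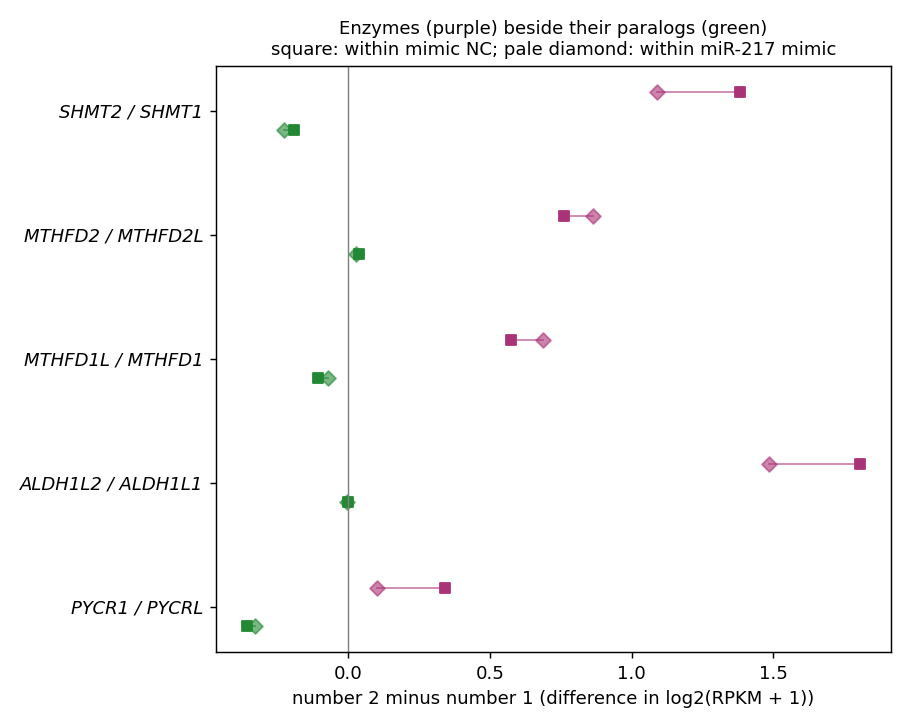
Difference between replicate numbers 2 and 1 in log2(RPKM + 1) for folate and proline enzymes of the list (purple) and their relatives (green), with squares for mimic NC and pale diamonds for miR-217 mimic. The 4 mitochondrial folate enzymes lie between 0.58 and 1.81, their relatives between -0.23 and 0.04, and PYCR1 lies above PYCRL.

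The other genes of serine and glycine, folate, asparagine, aspartate and glutamine, proline, and methionine and transsulfuration metabolism came to 62, of which 58 were in the table and 47 were tested. Their median difference between the numbers was 0.05, with a range of -0.50 to 0.89. Of these 47, 0 were called in either direction, whereas 0.577% of all tested genes were called higher and 0.562% lower. In 17 both number 2 libraries were higher, compared with 26.9% of all tested genes, and in 12 both were lower, compared with 35.5%. In the other 18 the numbers overlapped. CBS, which joins homocysteine and serine, differed most, with 0.946 and 2.66 RPKM in mimic NC replicates 1 and 2 and 1.07 and 2.77 RPKM in miR-217 mimic replicates 1 and 2, a difference of 0.89 that is uncertain because its reads can be split with the near-identical copy CBSL (1.06). AGA, a lysosomal enzyme that cleaves the bond between asparagine and sugar in the breakdown of glycoproteins, followed at 0.51 and AMD1, which feeds polyamine synthesis, at 0.47. Among the lowest were ASRGL1, an asparaginase, at -0.50 and PYCRL at -0.34, both with number 2 below number 1 in both groups.

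By pathway, the medians were 0.11 for the 6 other serine and glycine genes tested, -0.10 for 14 folate genes, 0.06 for 10 asparagine, aspartate and glutamine genes, -0.17 for 4 proline genes and 0.19 for 13 methionine and transsulfuration genes. With miR-217 mimic the 47 genes had a median log2 fold change of 0.02, and 0 had an unadjusted p under 0.05 in limma. Among 10 regulators of the ATF4 stress response, 6 were called higher in number 2 (0.577% of all tested genes) and the median difference was 1.10. Of the other 4, CEBPB was higher in number 2 by 0.81 and PPP1R15A by 0.10, ATF3 was lower by a difference of -0.06, and the numbers of ATF5 overlapped (-0.20). These 4 are named after their values were seen, and the list, too, was chosen with values of these libraries known. ATF4 itself had 54.5 and 123 RPKM in mimic NC replicates 1 and 2 and 57.4 and 121 RPKM in miR-217 mimic replicates 1 and 2.

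**Figure D4:**
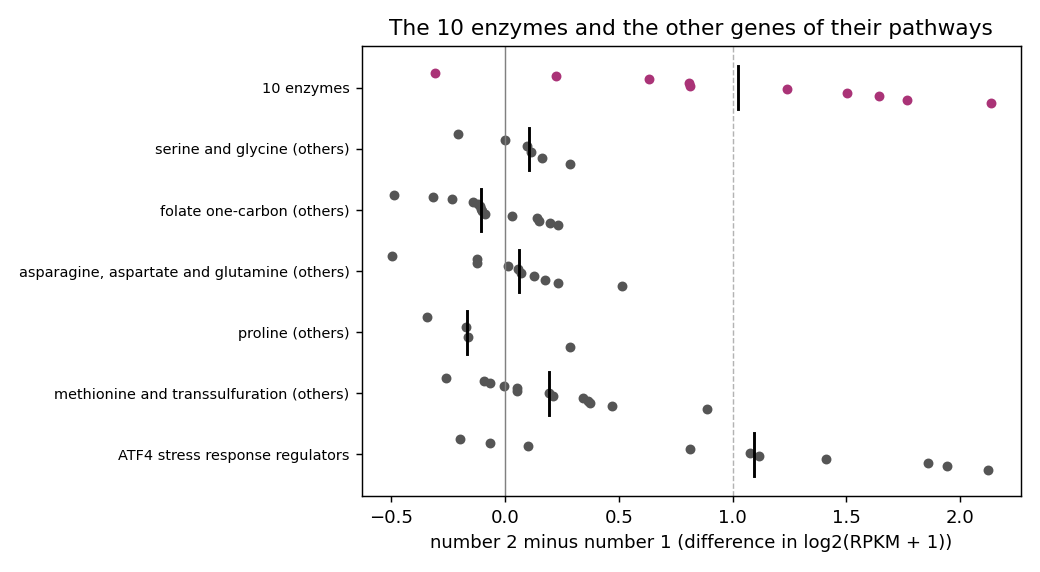
Difference between replicate numbers 2 and 1 in log2(RPKM + 1), mean of both groups, for the 10 enzymes (purple), the other tested genes of their pathways and 10 regulators of the ATF4 stress response (grey), with 1 point per gene, a black bar at each median and a dashed line at the limit of 1. The 47 other pathway genes lie between -0.50 and 0.89.

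The genes most like the 10 enzymes were sought among 6943 others with a mean of at least 5 RPKM, by the Euclidean distance between profiles over the 4 libraries (log2 of RPKM + 1 minus the gene's own mean). Nearest to the mean profile of the enzymes was SLC38A1, a glutamine transporter, at a distance of 0.061, with 17.6 and 37.4 RPKM in mimic NC replicates 1 and 2 and 18.1 and 36.7 RPKM in miR-217 mimic replicates 1 and 2. ATF4 followed at 0.073, YARS, a tRNA synthetase, at 0.089, XPOT, which exports tRNA from the nucleus, at 0.091, and CEBPG, a partner of bZIP factors, at 0.095. The enzymes themselves lay 0.217 (SHMT2) to 1.36 (ALDH18A1) from their own mean. Nearest to ASNS were DDIT3 at 0.353, NUPR1 at 0.430 and SLC7A11, a cystine transporter, at 0.637. The distances rest on 4 libraries that differ mainly by number, and any gene with a like difference between the numbers comes out near.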

How the data were processed

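Stranded mRNA libraries from TRIzol RNA were measured in 4 samples, 2 per group, and groups and numbers were taken from the sample labels. The labels call the untreated side control, and its name mimic NC is the one given in the authors' paper. The authors deposited 1 table of RPKM values for 32955 genes with exon coordinates and lengths, and 0 columns belonged to other samples. The submitters' processing notes name hg38, Trimmomatic 0.36, featureCounts, Subread 1.5.1 and edgeR 3.12.1, without roles. Every library's RPKM times length summed to 1000000. Whole multiples of 1 read (tolerance 0.05 read) made up 100% of the values, and reads were recovered from them. Values carry no other scaling, so a shift in a few abundant genes moves all others.

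Differences were computed on log2(RPKM + 1) and tested, two-sided, with limma 3.58.1 in R 4.3.3 (trend, all 13871 genes with mean RPKM of at least 1, Benjamini-Hochberg adjustment). The numbers were compared without a test. Python 3.11.15 and matplotlib 3.10.9 were used for sequences and plots. The members, lists, motifs and limits were chosen with earlier results of these data known. Named are the 10 members, their relatives and pseudogenes, the 3 highest and 3 lowest other pathway genes between numbers, any pathway gene at an unadjusted p under 0.05 with miR-217 mimic, ATF4, and the nearest profiles (5 to the mean, 3 to the member that differed most), and some genes under this rule are not reported here. The fits were repeated with median centring, a pseudocount of 0.1, a filter of 5, no filter, a replicate block, limma voom on recovered reads with and without it, and leaving out each library.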

Additional observations from a re-analysis of the deposited data

How the results depend on the processing

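Over the 10 alternatives, the median difference of the enzymes between the numbers ranged from 0.977 to 1.09, with 5 enzymes called each time. The list was chosen by this contrast and no enzyme's numbers overlapped, so its direction is no sign of stability. Neither filter setting changes the values of an enzyme, so both repeated the main median of 1.02. Within a single group each number has 1 library, so an overlap cannot occur there. Between the groups, the count of genes past both lines was 159, and it was 314 with no filter, 47 at a mean RPKM of at least 5, 82 with limma voom on recovered reads and 93 to 866 on leaving out 1 library. The labels do not say that same-numbered libraries are paired, although their deviations correlated at 0.68. With the replicate block 487 genes passed both lines and 0 had an adjusted p under 0.05, and voom with the replicate block gave 501 and 1. The standard errors of the enzymes fell to between 0.066 (PSAT1) and 0.12 (PHGDH) with the replicate block in limma, ASNS having an unadjusted p of 0.0566 and an adjusted p of 0.633 (0.0446 and 0.541 with voom), and 0 enzymes passed both lines under any setting. SHMT2 changed sign under median centring, to 0.0022. On leaving out 1 library, which sets unequal numbers against each other, the median log2 fold change of the enzymes ranged from -0.575 to 0.585, and that of each enzyme changed sign: ASNS -0.897 to 1.31, PHGDH -0.754 to 0.96, PSAT1 -0.774 to 1.01, PSPH -0.447 to 0.376, SHMT2 -0.715 to 0.668, MTHFD2 -0.309 to 0.554, MTHFD1L -0.23 to 0.457, ALDH1L2 -0.968 to 0.837, PYCR1 -0.256 to 0.0855 and ALDH18A1 -0.272 to 0.141. Each enzyme had 662 to 8074 reads in a library.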
